A study of Mus musculus with 12 samples.

Results

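The comparison described here is the liver of mice with YAP present, 2 days after TCPOBOP against day 0. It rests on 5 of the study's 12 arrays, the 3 arrays labelled WT at day 2 and the 2 arrays labelled WT at day 0, and it covers all 14102 genes that passed a filter on dim signals, of 18193 genes with a probe set of their own. All animals were female YAP fl/fl mice of 8 to 12 weeks, in which the Yap1 gene carries sites for the Cre recombinase. An adeno-associated virus of serotype AAV8, whose TBG promoter is active in hepatocytes, carried GFP for the WT group and Cre for the group named YAP KO, so that the deletion was directed at hepatocytes and other liver cells kept YAP. TCPOBOP was given once by oral gavage in corn oil, at 3 mg/kg, 10 days after the virus. Day 0 animals had the virus and no gavage, so the drug, its oil, the gavage and the time since the virus cannot be told apart in this comparison. Day 1 was a single array of pooled RNA in each genotype, and YAP KO livers had as many arrays as WT at each day. The labels do not say whether replicate arrays came from separate animals, and the p-values below measure only the spread between these arrays.

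TCPOBOP is a ligand of the constitutive androstane receptor (CAR), a nuclear receptor of hepatocytes that switches on genes of drug metabolism. In mice CAR activation also enlarges the liver and drives hepatocytes to divide without prior injury. YAP is a transcriptional coactivator of the Hippo pathway, which limits organ size. The genes of drug metabolism and of the cell cycle are the known part of this response. The account below is of the rest: the machinery that makes, folds and degrades proteins, the secreted products of the liver, its intermediary metabolism, and the markers of its other cells.

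Yap1, the gene floxed in all mice, had signals of 1234 and 1293 at day 0 and 1239.9, 1059.6 and 1306 at day 2 on the WT arrays. The WT groups overlapped and the difference was -0.08 ± 0.19 (adjusted p = 0.834). In the livers of the YAP KO group the same probe set read 632 and 596 at day 0 and 572, 539 and 797 at day 2, below every WT array. Here and below, signals are the deposited intensities, a difference is on the log2(signal + 16) scale as day 2 minus day 0, ± is its standard error with 2 arrays at day 0 and 3 at day 2, and the adjusted p is from limma with Benjamini-Hochberg adjustment over all genes tested. A gene was called when its adjusted p was under 0.05.

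At day 2, 1782 genes (12.6%) were called: 1024 were higher (7.26%) and 758 were lower (5.38%). Of these, 875 of the higher genes and 737 of the lower genes stood outside the known lists of drug metabolism, NRF2 targets, bile acids, fatty acid oxidation, cholesterol synthesis, gluconeogenesis, ribosome biogenesis and the cell cycle. The change reached 2-fold for 453 higher and 264 lower genes and 4-fold for 118 and 48. Most of these genes lay on the same side in the single pooled array of day 1. It lay above both day 0 arrays for 960 of the 1024 higher genes (93.8%; 33.8% of all genes tested) and below both for 694 of the 758 lower genes (91.6%; 44.9% of all genes). The day 1 pool shares no array with day 2 but is set against the same day 0 arrays. The count of calls depended on the 2 day 0 arrays: without the first it was 624 higher and 257 lower, and without the second 610 and 270. Without each of the 3 day 2 arrays in turn, it was 752 to 829 higher and 558 to 643 lower. In the lists below, the 3 values in parentheses after a count are the same count without the first day 0 array, without the second, and without each day 2 array in turn. The shares to set beside every list count are those of all genes tested, 7.26% higher and 5.38% lower. For lists of bright genes the larger shares by signal level, given in the next paragraph, are to be set beside the count too.

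The signal range of the arrays differed between the groups. The brightest probe set read 71165 to 73119 on the WT day 0 arrays and 103216 to 116918 on the WT day 2 arrays, and the spiked cre control transcripts averaged 17861 to 18695 and 29347 to 30060. In the 10% of genes with the highest mean signal the median difference was 0.09, against -0.11 over all genes and -0.18 in the dimmest 10%. After quantile normalization, which gives every array the same distribution, these medians were -0.07 in both. In the brightest 10%, 26.0% of genes were called higher and 12.3% lower, and in the dimmest 2.5% and 1.3%. Centring each array on its median moved the split of calls from 57.5% higher to 76.1% higher, with 1257 higher and 395 lower genes. The part of the signal range in the results was not tested. Values after quantile normalization are given below for some lists and genes only, and a call or count printed without one may change after it. Among the calls named below, those of Cpox and Anxa2 were lost after it (limma adjusted p = 0.0614 and 0.0893).

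**Figure D1:**
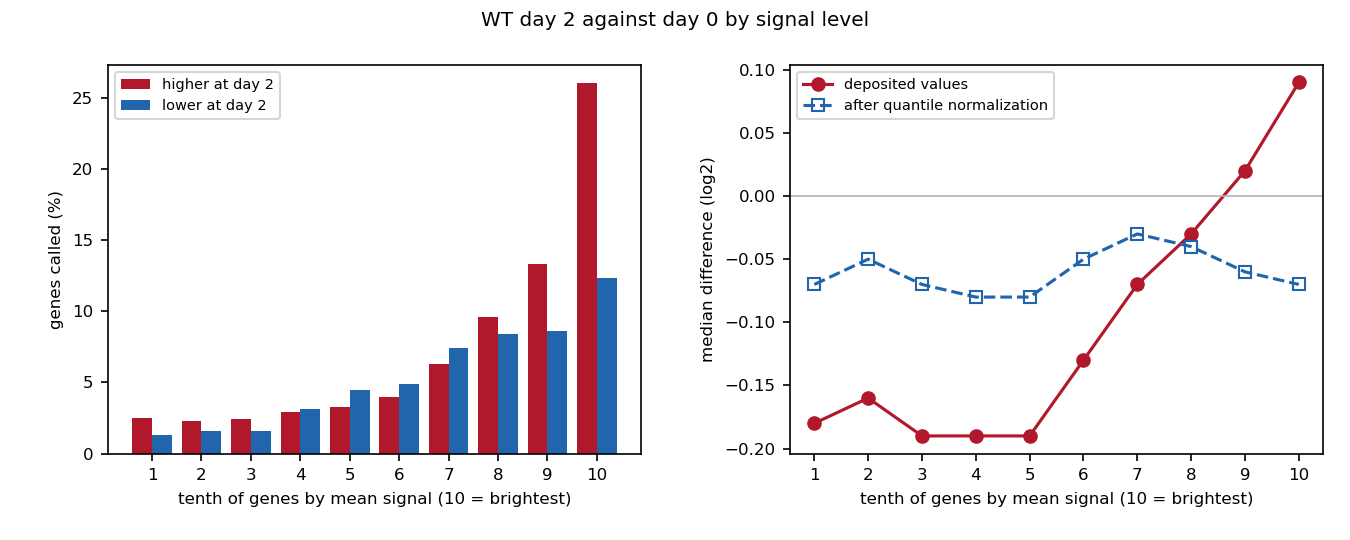
Calls and differences by signal level, WT day 2 against day 0. The left panel gives the percentage of genes called higher and lower in each of 10 equal bins of the genes by mean signal, and the right panel the median log2 difference in the deposited values and after quantile normalization. The upward slope over the brighter bins in the deposited values, from -0.19 to 0.09, is flat after quantile normalization.

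The clearest shared movement was in genes that make, fold and degrade proteins. The plot of list medians sets each list beside the median of all genes, and the lists for cytosolic ribosomal proteins, the proteasome, the endoplasmic reticulum and splicing had the highest medians among those plotted. At the other end lay markers of sinusoidal endothelial and stellate cells, complement and coagulation, male-biased liver genes, feedback inhibitors of growth signalling and the handling of triglycerides.

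**Figure D2:**
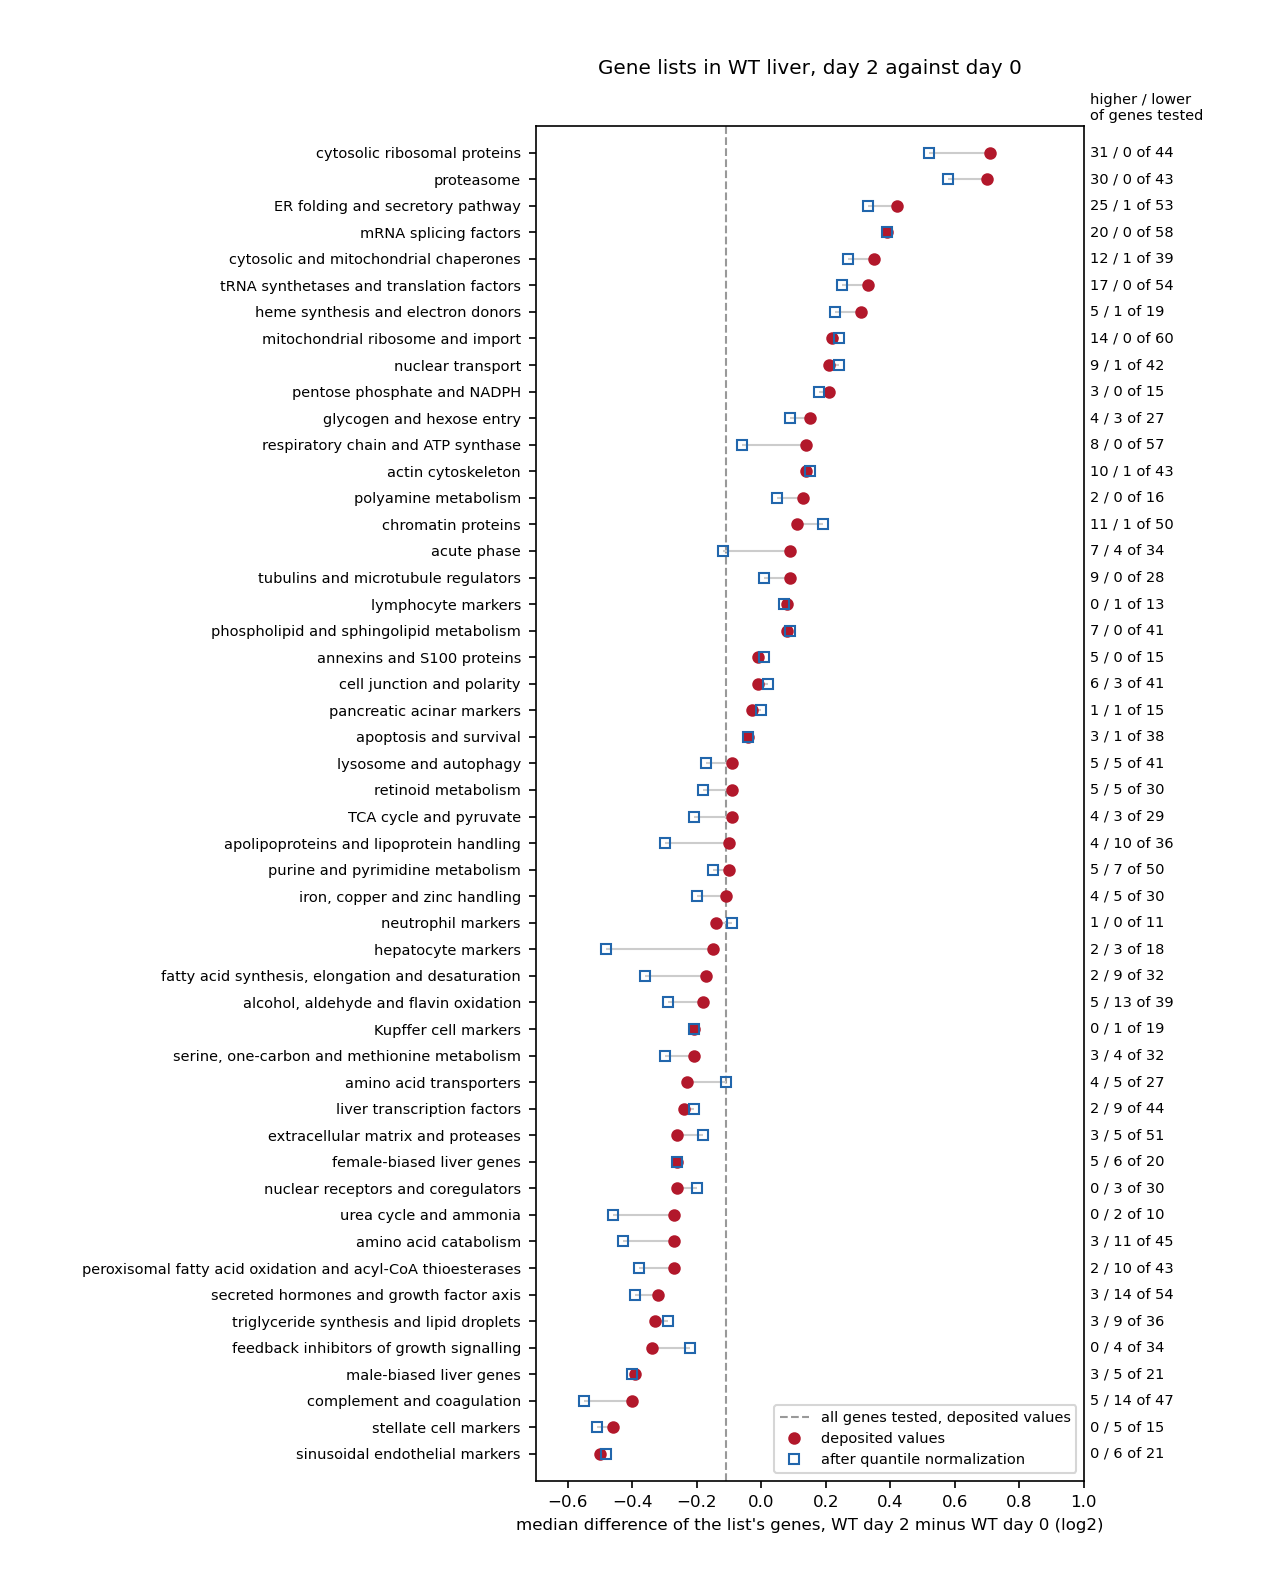
Median log2 difference (WT day 2 minus day 0) of the genes of each list, in the deposited values (filled circles) and after quantile normalization (open squares), with the counts called higher and lower of the genes tested at the right. The dashed line is the median of all genes tested, -0.11. Cytosolic ribosomal proteins (0.71) and the proteasome (0.70) lie at the top and sinusoidal endothelial markers (-0.50) at the bottom.

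The proteasome is the barrel-shaped protease that degrades ubiquitin-tagged proteins, built from a 20S core and a 19S cap. Of 43 genes tested, 30 rose (23, 22, 27 to 28), none fell and the median difference was 0.70; after quantile normalization 27 rose and the median was 0.58. The rise spanned the parts of the particle. All 7 constitutive beta subunits of the core, which hold its active sites, rose by 0.72 to 1.26, as did 5 of 6 ATPases and 11 of 14 other subunits of the cap. Psmb4, a core beta subunit, read 5479 and 4642 at day 0 and 11772, 11757 and 12767 at day 2, a 2.39-fold difference (1.26 ± 0.14, adjusted p = 0.000164). Psmc3, a cap ATPase that helps unfold substrates, read 1736 and 1770.4 at day 0 and 4268, 4364 and 4529.6 at day 2 (1.32 ± 0.13, adjusted p = 6.1e-05). Every day 2 array of both genes was above every day 0 array. The groups of arrays did not overlap in any of the 1024 genes called higher or the 758 called lower, and in 45.1% of all genes tested. For a called gene, lack of overlap is therefore no further support, here and below.

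Among the proteasome genes that were not called were the 3 inducible beta subunits of the immunoproteasome, Psmb8, Psmb9 and Psmb10. These replace the constitutive active subunits in immune and cytokine-treated cells. None of the 3 was called, and their differences were -0.10, -0.24 and -0.22. Of the 7 alpha subunits that form the outer rings 3 rose, with a range of 0.27 to 0.92 over all 7. Psme3, the nuclear activator PA28 gamma, had the largest rise of the list: it read 219 and 215 at day 0 and 673, 657 and 843 at day 2 (1.66 ± 0.31, adjusted p = 0.00432). Of the 3 proteins that assemble the core 2 rose, Psmg1 among them at 0.73 ± 0.13. In the day 1 pool 38 of the 43 genes were above both day 0 arrays. Of the 30 calls, 19 held without each of the 5 arrays in turn.

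Cytosolic ribosomal proteins, the structural proteins of the translating ribosome, formed the other large block: 31 of 44 genes tested rose (16, 22, 24 to 26) and none fell, with a median of 0.71. This list was drawn up by symbol after values had been seen, and 37 of its genes lie in the brightest 10% of genes. After quantile normalization 23 rose, with a median of 0.52. Rplp0, of the ribosomal stalk, read 7632 and 8013 at day 0 and 17529, 19754 and 18046 at day 2 (1.23 ± 0.12, adjusted p = 4.77e-05; 1.01 after quantile normalization). Rpl22l1, a paralog of Rpl22, had the largest difference, 1.53 ± 0.11, whereas Rpl22 itself, at 0.44 ± 0.14, was not called. Probe sets for ribosomal proteins can also bind processed pseudogene transcripts, so single members are less certain than the block.

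Translation factors and tRNA synthetases rose in smaller number, 17 of 54 tested (10, 10, 13 to 15) with none lower and a median of 0.33. Eif4a1, the helicase of the cap-binding complex, read 4282 and 3873 at day 0 and 8251, 9237 and 9348 at day 2 (1.13 ± 0.13, adjusted p = 0.000131). Pabpc1, which binds poly(A) tails, read 6054 and 5612 at day 0 and 11743, 13591 and 13034 at day 2 (1.13 ± 0.20), and Vars, the valyl-tRNA synthetase, 847 and 885 at day 0 and 1737, 2126 and 1827 at day 2 (1.11 ± 0.17). In all 3 genes the lowest day 2 array was above the highest day 0 array. Of splicing factors, 20 of 58 rose (6, 10, 12 to 16) and none fell, with a median of 0.39 that was the same after quantile normalization. Nono, an RNA-binding protein of nuclear paraspeckles, read 1630.2 and 1386 at day 0 and 4092, 3377 and 3901 at day 2 (1.32 ± 0.20), and Hnrnpab 3571 and 3708 at day 0 and 10065, 6863 and 9371 at day 2 (1.25 ± 0.20).

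Nuclear transport carried one of the largest single rises outside the known lists. Nup205, a scaffold protein of the inner ring of the nuclear pore, read 379 and 270.3 at day 0 and 3770.1, 3630.0 and 3502 at day 2, 10.8-fold higher (3.44 ± 0.15, adjusted p = 1.37e-07). Its day 1 pool read 2165, between the groups. Ran, the GTPase that gives transport its direction, read 3351 and 3364 at day 0 and 9998, 11311 and 9171 at day 2 (1.59 ± 0.12), and the import receptor Kpna2 1595 and 1471 at day 0 and 4636, 3657 and 4169.8 at day 2 (1.42 ± 0.15). Over the list 9 of 42 rose (3, 6, 7 to 8) and 1 fell (Seh1l, of the outer ring of the pore, at -0.49 ± 0.14; adjusted p from 0.084 to 0.219 without the first day 0 array, the second day 0 array, the second day 2 array or the third day 2 array), with a median of 0.21.

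Mitochondrial ribosome and import genes rose in 14 of 60 cases (9, 5, 10 to 14), with none lower. Beside this stand 26.0% called higher in the brightest 10% of all genes tested and 13.3% in the next 10%. The list was not compared with genes of like signal. Timm8a1, an import chaperone of the intermembrane space, read 1758 and 2211 at day 0 and 7977, 6641 and 7674 at day 2 (1.90 ± 0.18, adjusted p = 4.05e-05), and Lonp1, the protease of the mitochondrial matrix, 1292 and 1460.0 at day 0 and 3427, 4029 and 3379.9 at day 2 (1.38 ± 0.17). The genes of the respiratory chain and ATP synthase were tested as a list of their own: 8 of 57 rose (2, 3, 3 to 7), none fell, and the median of 0.14 became -0.06 after quantile normalization. Of the 57 genes, 50 lie in the brightest 10% of genes.

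**Figure D3:**
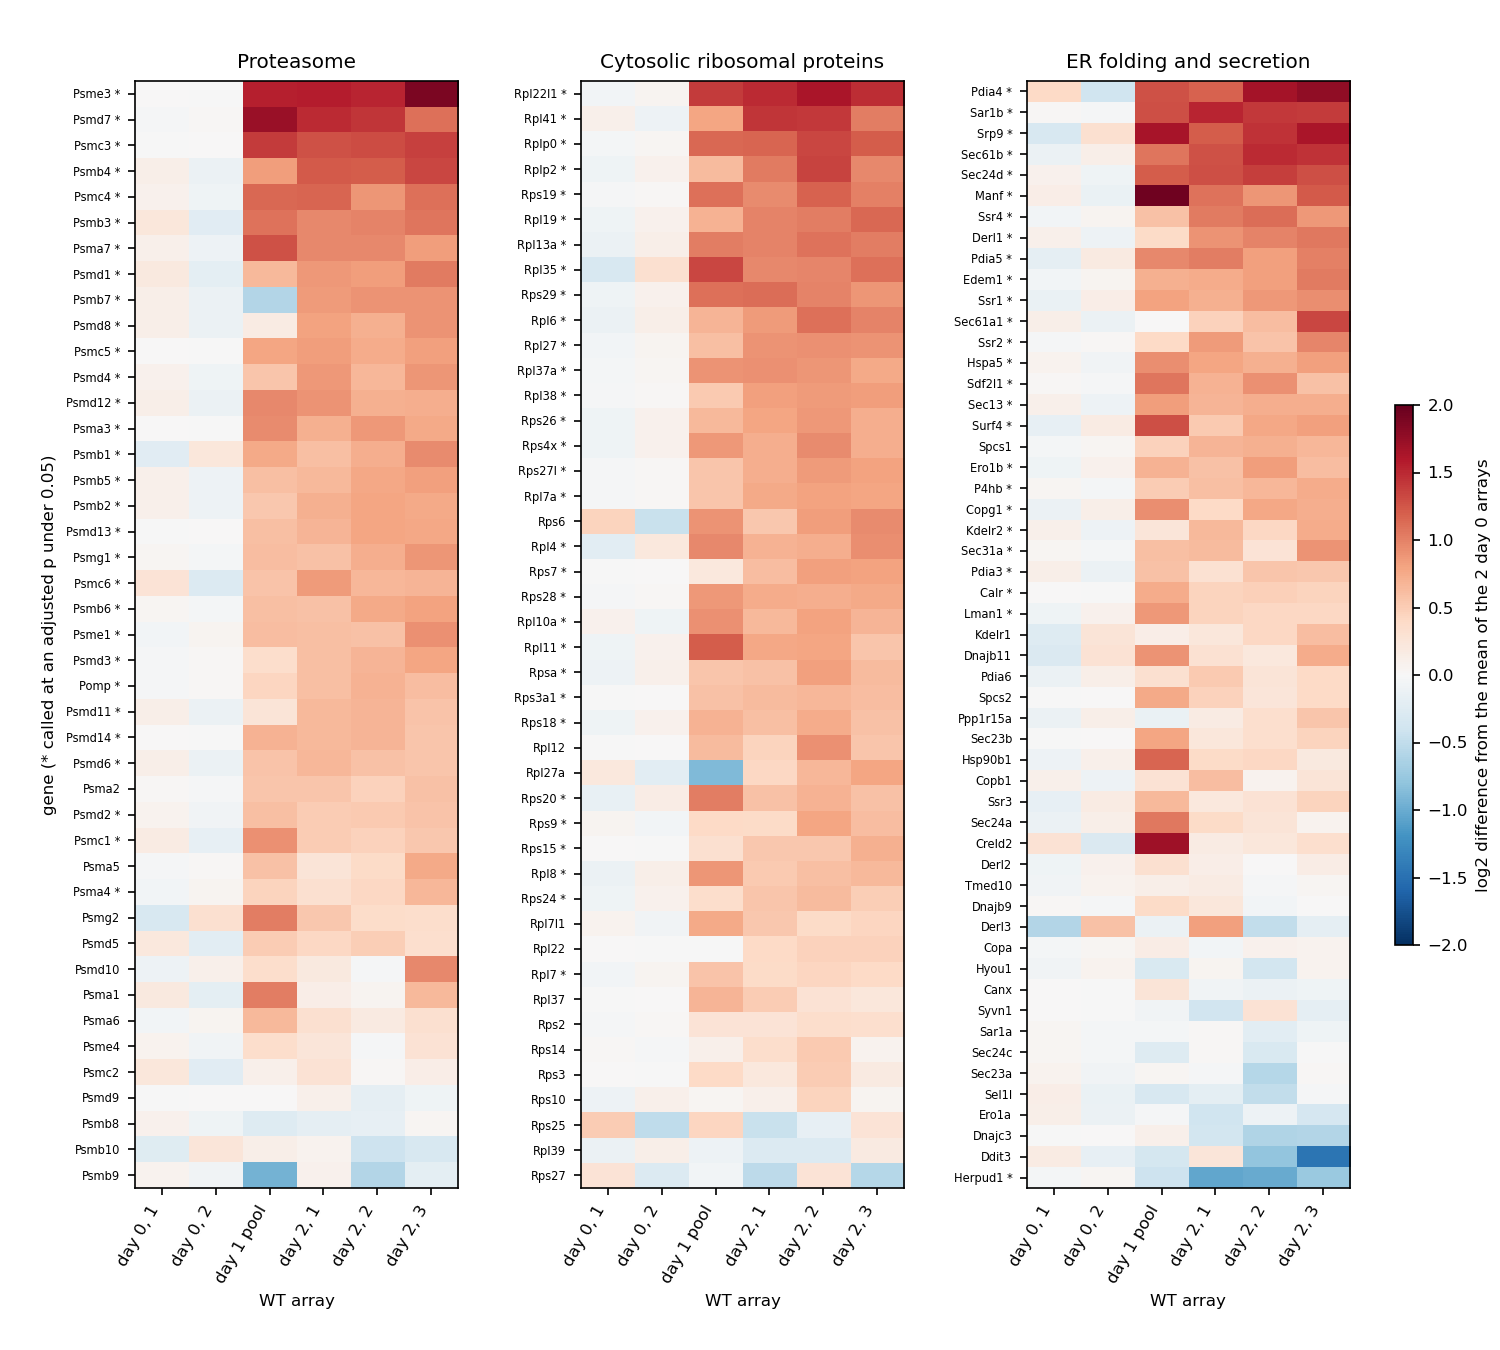
Log2 difference of each WT array from the mean of the 2 day 0 arrays, for the genes tested of the proteasome, the cytosolic ribosomal proteins and the endoplasmic reticulum (ER) folding and secretion list. Each horizontal line of cells is a gene, in order of the day 2 difference, each column is an array, and an asterisk marks a gene called at an adjusted p under 0.05. The rise is seen in all 3 day 2 arrays and in most genes in the day 1 pool, and the immunoproteasome subunits Psmb8, Psmb9 and Psmb10 stand at the foot of the proteasome panel.

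The endoplasmic reticulum folds the secreted proteins of the hepatocyte and passes them to the Golgi. Of 53 genes of its folding, translocation and vesicle machinery, 25 rose (11, 12, 14 to 19) and 1 fell, with a median of 0.42 (0.33 after quantile normalization, where 18 rose and 2 fell). The rises lay along the whole route. Srp9 is part of the particle that brings ribosomes to the membrane and read 659 and 1028 at day 0 and 1919, 2281 and 2592 at day 2 (1.43 ± 0.20). Sec61b is part of the channel through it and read 3758 and 4465 at day 0 and 9885, 11509 and 11186 at day 2 (1.40 ± 0.18). Sar1b and Sec24d form the coat of vesicles that leave for the Golgi: Sar1b read 7016 and 6770.3 at day 0 and 19821, 18325 and 18282 at day 2 (1.45 ± 0.13, adjusted p = 2.09e-05) and Sec24d 1443 and 1287 at day 0 and 3370.2, 3584 and 3354 at day 2 (1.32 ± 0.15). For each of these 4 genes the 2 groups of arrays did not overlap, which was so of every called gene and of 45.1% of all genes tested in either direction.

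The stress markers of the same compartment were mixed. Herpud1, a component of ER-associated degradation that is strongly induced by the unfolded protein response, was the only gene of the list to fall: it read 6065 and 6352 at day 0 and 3014, 3089 and 3721 at day 2 (-0.93 ± 0.18, adjusted p = 0.00476). Ddit3, the stress-induced factor CHOP, had a difference of -0.67 ± 0.44, Dnajc3 -0.52 ± 0.18 and Hyou1 -0.08 ± 0.19, and none of these 3 was called. After quantile normalization Dnajc3 was called lower (-0.63, adjusted p = 0.0286). Hspa5, the chaperone BiP, read 7743 and 7030.0 at day 0 and 12799, 12129 and 12991 at day 2 (0.77 ± 0.18, adjusted p = 0.0171). Its call was lost in some sets of arrays (adjusted p from 0.0529 to 0.135 without the first day 0 array, the second day 0 array or the third day 2 array). Manf and Creld2, other stress-induced secreted proteins, peaked in the day 1 pool, at 5987 and 1919. At day 2 Manf read 1696 and 1411 at day 0 and 3317, 2876 and 3637 at day 2 (1.07 ± 0.15) and Creld2 716 and 469.8 at day 0 and 653, 682 and 737 at day 2 (0.24 ± 0.19, not called). Day 1 is a single array, so its level has no error.

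The promoter windows of this list were searched for exact matches to the endoplasmic reticulum stress element, a site through which the unfolded protein response is known to act. The element was searched on both strands as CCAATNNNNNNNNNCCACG in the RefSeq windows from 250 bases before to 50 bases after each gene's start (build GRCm38.p6). A variant of the element, or a copy outside the window, would not be found. These 4 stretches of 29 bases show the element in 2 members that rose and 2 that did not, with the CCAAT and CCACG ends of the element in capitals. Hspa5 lies at chr2:34772020-34772048, Ero1b at chr13:12565677-12565705, Dnajc3 at chr14:118937822-118937850 and Syvn1 at chr19:6046527-6046555, all on the plus strand. In Ero1b the element runs the other way, so its ends read as their reverse complements.
Hspa5: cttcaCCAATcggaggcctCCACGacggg
Ero1b: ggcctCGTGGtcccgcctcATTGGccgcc
Dnajc3: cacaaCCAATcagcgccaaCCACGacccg
Syvn1: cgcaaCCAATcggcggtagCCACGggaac

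The element was present in 10 of 46 members that had a promoter window (21.7%) and in 18 of 11293 tested genes with one (0.159%). Of the 10 members with it 3 rose (Hspa5, Ero1b and Calr), with a median difference of 0.29. These 3 calls each depended on single arrays, with adjusted p from 0.0677 to 0.235 without any one of the 5 arrays for Ero1b and adjusted p from 0.0735 to 0.179 without any one of the 5 arrays for Calr. After quantile normalization Hspa5 stayed called higher (0.57), whereas Ero1b and Calr did not (adjusted p = 0.0704 and 0.313). Dnajc3, which also has the element, was then called lower (-0.63, adjusted p = 0.0286). Of the 36 members with a window but no match in it 16 rose and 1 fell in the deposited values, with a median of 0.42. The other 7 members of the list, Manf and Hyou1 among them, had no window and were not searched. Of these 6 rose, with a median of 0.8. Ero1b, an oxidase that drives disulfide formation, read 1348 and 1535 at day 0 and 2158, 2569.8 and 2214 at day 2 (0.68 ± 0.20), while Syvn1, a ubiquitin ligase of ER-associated degradation with the element in the same orientation as Hspa5, read 1978 and 1953 at day 0 and 1505, 2401 and 1733 at day 2 (-0.09 ± 0.20, not called). A second site of that response, the unfolded protein response element (TGACGTGG), was present in 3 of the 46 members, 1 of them called higher. It was present in 123 of the 11293 tested genes with a window (1.09%). These matches describe letters in a window and not binding.

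Chaperones of the cytosol and mitochondria rose in 12 of 39 cases (7, 6, 10 to 11) and fell in 1, with a median of 0.35. Those that rose included Tcp1 of the ring-shaped TRiC complex, which folds actin and tubulin, at 1937 and 2116 at day 0 and 5380.3, 6039.5 and 4857 at day 2 (1.41 ± 0.17), and Vbp1 of prefoldin, which hands substrates to TRiC, at 283 and 171 at day 0 and 858, 650.2 and 640.2 at day 2 (1.62 ± 0.29). Hspe1, the lid of the mitochondrial chaperonin, read 3671 and 3685 at day 0 and 9803, 9811 and 9595 at day 2 (1.40 ± 0.10, adjusted p = 7.47e-06). Fkbp5, a co-chaperone of the glucocorticoid receptor and a target of it, was the gene that fell, at 1981 and 2129 at day 0 and 1064, 1253 and 924 at day 2 (-0.93 ± 0.16).

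For 4 heat-shock genes, chosen after their values were seen, the day 1 pool read above every day 0 and day 2 array. Hsp90aa1, the inducible HSP90, read 1811 and 1777 at day 0 and 6291, 5054 and 4296 at day 2 (1.51 ± 0.15) and 12431 in the day 1 pool. Hspa1b, an inducible HSP70, read 4846 in the day 1 pool against 499 and 727 at day 0 and 525, 534 and 981 at day 2, and was not called (0.11 ± 0.30). Hsph1 read 2021 in that pool against 646 and 291 at day 0 and 443, 583 and 433 at day 2 (0.14 ± 0.27, not called), and the constitutive Hspa8 21202 against 9628 and 7790.3 at day 0 and 6836, 9683 and 14012 at day 2 (0.17 ± 0.25, not called). One pooled array cannot be tested, and probe sets of the HSP70 family can detect each other's transcripts.

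Some genes that supply the oxygenases of drug metabolism rose beside them. Alas1, the rate-limiting enzyme of heme synthesis and a known CAR target, read 7915 and 6138 at day 0 and 15434, 16899 and 17633 at day 2 (1.25 ± 0.18, adjusted p = 0.00073). Fdx1, a mitochondrial electron donor, read 5401 and 6225 at day 0 and 11843, 10905 and 12112 at day 2 (1.00 ± 0.13), and Cyb5r3, which reduces cytochrome b5, 11874 and 11080.1 at day 0 and 20177, 22529 and 21212 at day 2 (0.89 ± 0.12). The other way, Cpox, a later step of heme synthesis, read 1794 and 1086 at day 0 and 846, 877 and 761 at day 2 (-0.74 ± 0.22, adjusted p = 0.0487), a call that was lost in some sets of arrays (adjusted p from 0.0798 to 0.4 without the first day 0 array, the first day 2 array, the second day 2 array or the third day 2 array). Of 19 heme and electron-transfer genes 5 rose (5, 4, 5) and 1 fell (0, 1, 0). Among 15 genes of the pentose phosphate pathway and of NADPH 3 rose and none fell. NAD kinase (Nadk) read 6462 and 6035 at day 0 and 16438, 14793 and 15251 at day 2 (1.31 ± 0.16). Transketolase (Tkt) of the pentose phosphate pathway read 2969 and 3467 at day 0 and 5820.3, 6750.1 and 6516 at day 2 (0.98 ± 0.15). The third was Me1, at 0.94 ± 0.18, while Pgd, H6pd, Idh1 and Idh2 were not called.

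Several single genes changed by more than most. Smpd2, a neutral sphingomyelinase that releases ceramide, read 202 and 169 at day 0 and 5142, 3387 and 4469.5 at day 2, 21.4-fold higher (4.42 ± 0.27, adjusted p = 1.73e-06). Sgpl1, the lyase that ends sphingolipid breakdown, read 607 and 649.5 at day 0 and 2573, 2485 and 2170.3 at day 2 (1.91 ± 0.15). Prss8, the membrane serine protease prostasin, read 88.8 and 107 at day 0 and 893, 1022 and 927 at day 2 (3.08 ± 0.25). The day 0 signals of Smpd2 and Prss8 lay below the medians of their arrays, 252.7 and 266.2, so the size of these rises rests on dim values. The same holds for the WT values of Adssl1, Tnfrsf12a, Plk3, Samd1 and Ikbke below. In the list of phospholipid and sphingolipid genes that holds the first 2 of these, 7 of 41 rose (4, 4, 5 to 6) and none fell, with a median of 0.08.

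Among secreted products, the chemokine Ccl9 had the largest rise in signal units of those named here and outside the known lists apart from the most abundant plasma proteins. It read 3908 and 4853 at day 0 and 39897, 35990.0 and 42072 at day 2, 8.98-fold higher (3.17 ± 0.15, adjusted p = 1.98e-07), and 21858 in the day 1 pool. The hepatokine Lect2 read 4356 and 3579 at day 0 and 13591, 11582 and 15327 at day 2 (1.76 ± 0.15), and Apoa4, an apolipoprotein made in step with lipid export, 4552 and 4609 at day 0 and 16287, 25709 and 22771 at day 2 (2.21 ± 0.24). All day 2 arrays of the 3 genes were above both day 0 arrays.

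The acute phase genes did not move as a block: 7 of 34 rose (4, 7, 7) and 4 fell (4, 4, 4), with a median of 0.09 (-0.12 after quantile normalization). The acid glycoproteins Orm2 and Orm3 rose most. Orm2 read 492 and 503 at day 0 and 3151, 4313 and 2989.6 at day 2 (2.75 ± 0.29) and Orm3 664 and 443 at day 0 and 3851, 3391 and 3959.8 at day 2 (2.74 ± 0.19), though probe sets of this family can detect each other's transcripts. Lcn2, an iron-sequestering protein of liver and neutrophils, read 478 and 201 at day 0 and 1229, 1754 and 1279 at day 2 (2.11 ± 0.32), while the other 10 neutrophil markers tested were not called. In the opposite direction, Serpina3n, a protease inhibitor induced by inflammation, read 5087 and 4802 at day 0 and 1327, 1026 and 1568 at day 2 (-1.93 ± 0.23, adjusted p = 0.000252), and Il1rap, the co-receptor for interleukin 1, 3212 and 3432 at day 0 and 1076, 869 and 1113 at day 2 (-1.70 ± 0.19).

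For the most abundant transcripts of the liver the calls depended on the normalization. Alb, albumin, read 66351 and 61762 at day 0 and 99157, 98205 and 114244 at day 2 (0.69 ± 0.15, adjusted p = 0.00918), but its difference was 0.12 after quantile normalization (adjusted p = 0.322). Hpx, the plasma heme carrier, read 53315 and 54545 at day 0 and 88405, 88874 and 99062 at day 2 (0.77 ± 0.14; 0.18 after quantile normalization), and Apoa1, the main protein of high-density lipoprotein, 66279 and 66019 at day 0 and 92191, 91154 and 105249 at day 2 (0.54 ± 0.14; 0.01). The call of Alb was lost without either day 0 array (adjusted p = 0.055 and 0.0946 without the first and the second day 0 array), that of Hpx without the first (adjusted p = 0.0502 without the first day 0 array), and that of Apoa1 in 4 of the 5 sets (adjusted p from 0.0585 to 0.157 without the first day 0 array, the second day 0 array, the first day 2 array or the third day 2 array). These genes sit at the top of the signal range described above, where the day 2 arrays were brighter.

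**Figure D4:**
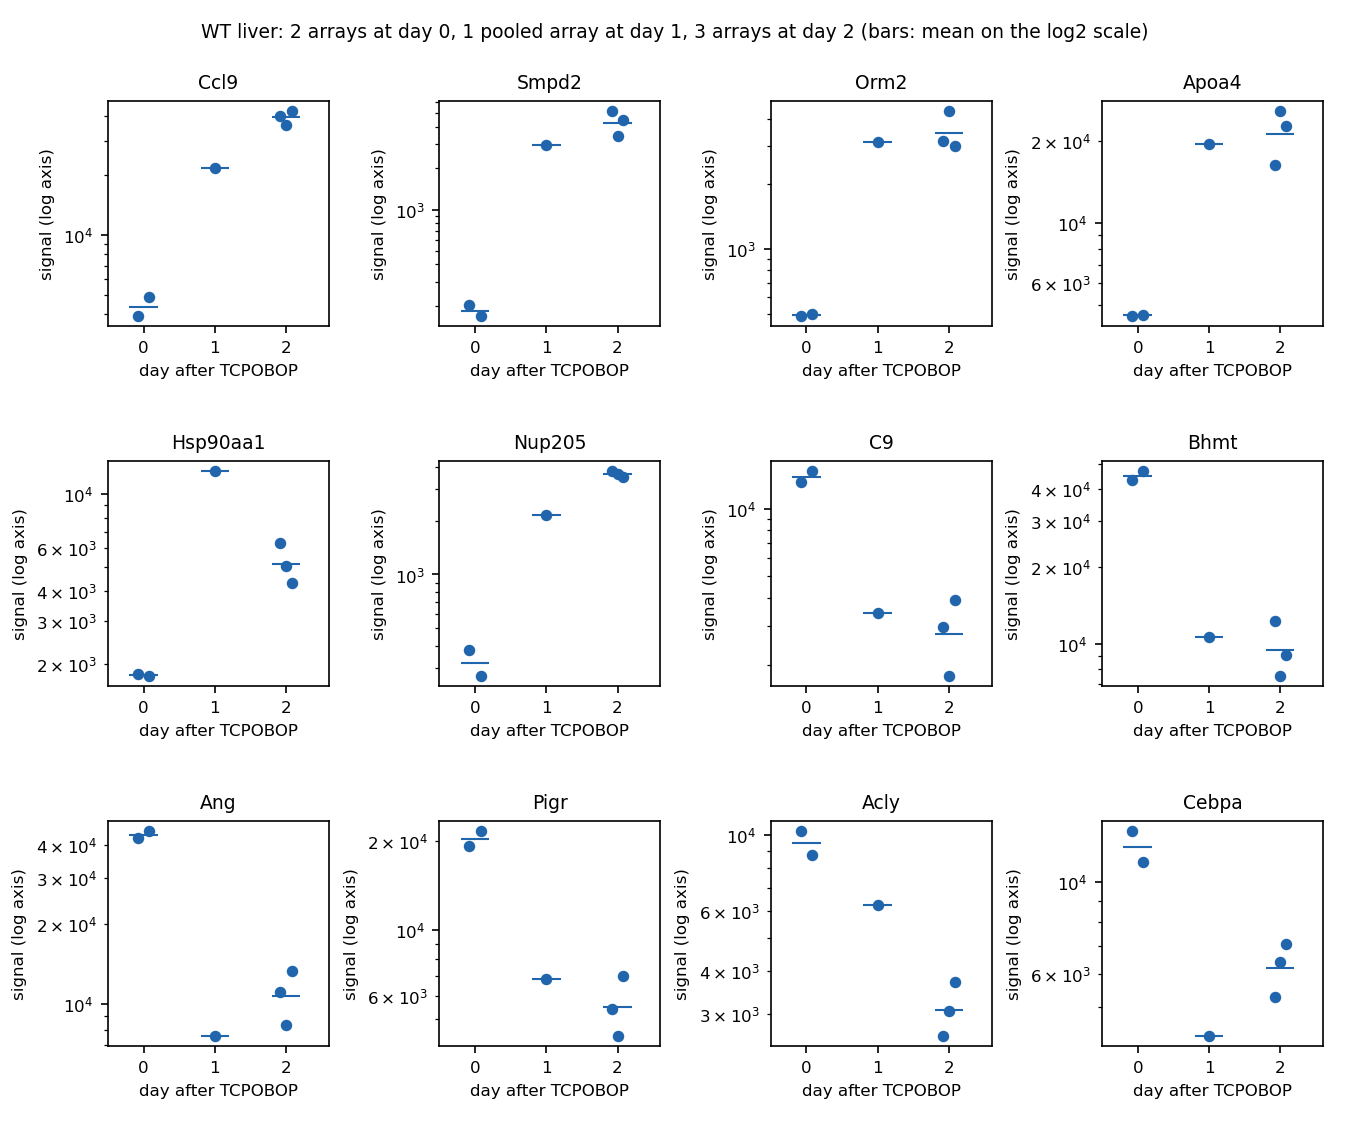
Signals on a log axis for 12 genes on each WT array at day 0 (2 arrays), day 1 (1 pooled array) and day 2 (3 arrays), with bars at the mean on the log2 scale. Ccl9, Smpd2, Orm2, Apoa4, Hsp90aa1 and Nup205 were higher at day 2, and C9, Bhmt, Ang, Pigr, Acly and Cebpa lower, with no overlap between the day 0 and day 2 arrays. The day 1 pool of Hsp90aa1 lies above all day 2 arrays.

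Complement and coagulation genes fell more often than they rose. Of 47 complement and coagulation genes 14 fell (8, 10, 11 to 13) and 5 rose (1, 2, 3 to 4), with a median of -0.40; after quantile normalization 28 fell and 1 rose, with a median of -0.55. C9, which forms the pore of the complement attack complex, read 13202 and 14649.9 at day 0 and 2951, 1791 and 3905 at day 2 (-2.33 ± 0.33, adjusted p = 0.000761). The mannose-binding lectins Mbl1 and Mbl2 start the lectin branch of complement. Mbl1 read 4941 and 4267 at day 0 and 1855, 1157 and 1930.4 at day 2 (-1.51 ± 0.27) and Mbl2 21872 and 19803 at day 0 and 6542, 7039.5 and 6688 at day 2 (-1.62 ± 0.12). In the contact branch of coagulation, F11 read 1493 and 1766 at day 0 and 505, 539.7 and 851 at day 2 (-1.38 ± 0.21) and prekallikrein, Klkb1, 3531 and 4042 at day 0 and 1366, 1855 and 1756 at day 2 (-1.19 ± 0.17). The 3 fibrinogen chains Fga, Fgb and Fgg were not called, at -0.15, -0.18 and -0.21. After quantile normalization all 3 were called lower, at -0.52, -0.56 and -0.60. The genes that rose were Pros1 (protein S) at 0.80 ± 0.19, Plg (plasminogen) at 0.68 ± 0.10, Serpind1 at 0.67 ± 0.14, Serpina1b at 0.58 ± 0.16 and F10 (factor X) at 0.53 ± 0.14. Plg kept its call without each array in turn, and the others did not: Pros1 had adjusted p = 0.189 without the first day 0 array and 0.0509 without the first day 2 array, Serpind1 adjusted p = 0.0556 and 0.0582 without the first and the second day 0 array, Serpina1b adjusted p from 0.0576 to 0.202 without any one of the 5 arrays and F10 adjusted p from 0.0592 to 0.213 without the first day 0 array, the second day 0 array or the third day 2 array. After quantile normalization Pros1 was the gene of these 5 still called, and the difference of Serpina1b was 0.00.

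The largest falls in signal units included 3 other genes of secretion and transport. Angiogenin, Ang, and Rnase4 are secreted ribonucleases: Ang read 42429 and 44813 at day 0 and 11136, 8305 and 13314 at day 2 (-2.02 ± 0.23, adjusted p = 0.000137) and Rnase4 22136 and 22977 at day 0 and 6525, 4834 and 6560.2 at day 2 (-1.93 ± 0.16). Pigr, the receptor that carries IgA into bile, read 19297 and 21578 at day 0 and 5424, 4389.9 and 7020.0 at day 2 (-1.89 ± 0.19). In the day 1 pool these 3 genes read 7574, 5076 and 6829, below both day 0 arrays.

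Genes of the growth hormone axis and of hepatic endocrine signals also fell: 14 of 54 were lower (11, 12, 12 to 13) and 3 higher, with a median of -0.32. Igfals, the subunit that holds IGF1 in a stable plasma complex, read 6214 and 4698 at day 0 and 1095, 1200.4 and 1481 at day 2, 4.28-fold lower (-2.10 ± 0.18, adjusted p = 1.63e-05). Ghr, the growth hormone receptor, read 7683 and 7776 at day 0 and 2845, 2609 and 2786 at day 2 (-1.49 ± 0.18), and Klb, the co-receptor for FGF21 and FGF15, 1630.0 and 1811 at day 0 and 529, 503 and 597 at day 2 (-1.64 ± 0.17). Agt, the precursor of angiotensin, read 10595 and 11629 at day 0 and 5472, 3872 and 4774 at day 2 (-1.25 ± 0.16). Transcription factors of the mature liver fell in 9 of 44 cases (4, 3, 8 to 9) and rose in 2 (0, 0, 1 to 2). Cebpa, which sustains the differentiated hepatocyte, read 13265 and 11176 at day 0 and 5284, 6409.5 and 7094 at day 2 (-0.97 ± 0.15, adjusted p = 0.00135), and Klf9, a hormone-responsive factor, 3884 and 4632 at day 0 and 1795, 1734 and 1804 at day 2 (-1.25 ± 0.14). The 2 that rose were Creb3l3 at 0.71 ± 0.15 (adjusted p = 0.0713 and 0.0523 without the first and the second day 0 array) and Hhex at 0.49 ± 0.13 (adjusted p from 0.0757 to 0.226 without the first day 0 array, the second day 0 array, the first day 2 array or the third day 2 array).

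Sex-biased liver genes, which depend on the pattern of growth hormone, changed in both directions. Of 20 female-biased genes 5 rose (5, 3, 5) and 6 fell (3, 4, 5 to 6). Of 21 male-biased genes 3 rose (2, 3, 3) and 5 fell (5, 4, 4 to 5). Cyp39a1, a female-biased oxysterol hydroxylase, read 671 and 903 at day 0 and 3084, 2549.6 and 2944 at day 2 (1.85 ± 0.16), and Keg1, male-biased, 4099.5 and 4383 at day 0 and 1636, 1504 and 1571 at day 2 (-1.42 ± 0.19). Slco1a1, a male-biased organic anion transporter, read 1549.5 and 1882 at day 0 and 402, 431 and 619 at day 2 (-1.81 ± 0.21). The largest change of each list went the other way. Acot3, female-biased, read 5483 and 3838 at day 0 and 110, 154 and 833 at day 2 (-4.13 ± 0.63). Elovl3, male-biased, rose by 2.18 ± 0.26.

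Several abundant enzymes of methionine and amino acid metabolism were lower at day 2. Bhmt, which remethylates homocysteine with betaine, read 43283 and 46797 at day 0 and 12331, 7525 and 9105 at day 2, 4.75-fold lower (-2.25 ± 0.23, adjusted p = 8.5e-05). Mat1a, the liver enzyme that makes S-adenosylmethionine, read 23056 and 25269.8 at day 0 and 12158, 9771 and 13476 at day 2 (-1.04 ± 0.14), and Cdo1, which commits cysteine to taurine and sulfate, 34123 and 33383 at day 0 and 17927, 14615 and 17763 at day 2 (-1.01 ± 0.12). Got1, the cytosolic aspartate aminotransferase, read 6471 and 5876 at day 0 and 2747, 1876 and 2420.3 at day 2 (-1.40 ± 0.21), and Prodh, of proline breakdown, 6089 and 5769 at day 0 and 3028, 1877 and 2776 at day 2 (-1.24 ± 0.23). Over the lists, 11 of 45 genes of amino acid catabolism fell (9, 9, 9 to 11) and 3 rose (2, 1, 3), and 4 of 32 genes of serine, one-carbon and methionine metabolism fell (3, 4, 4) and 3 rose (1, 0, 1 to 4), a mixed list beside the 12.3% called lower in the brightest 10% of genes. Of the 3 amino acid genes that rose, Agxt, which detoxifies glyoxylate, read 10475 and 9073 at day 0 and 19189.9, 14529.9 and 21906 at day 2 (0.91 ± 0.16). Uox, urate oxidase, read 35325 and 42564 at day 0 and 16312, 15884 and 19137 at day 2 (-1.18 ± 0.13), and Dpyd, which starts pyrimidine breakdown, 9127 and 9247 at day 0 and 3814, 2794 and 3725 at day 2 (-1.42 ± 0.16). The list of purine and pyrimidine genes that holds Uox and Dpyd had called members in both directions. Its largest change was a rise: Adssl1 read 94.1 and 61.5 at day 0 and 3186, 2709 and 2900 at day 2 (4.99 ± 0.17, adjusted p = 1.44e-08).

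Some genes of the first steps of lipid synthesis fell. Acly, which makes cytosolic acetyl-CoA from citrate, read 10238 and 8750.1 at day 0 and 2581, 3045 and 3713 at day 2 (-1.62 ± 0.23, adjusted p = 0.000678). Acss2, which makes it from acetate, read 11362 and 11045 at day 0 and 3478, 4763 and 4922 at day 2 (-1.37 ± 0.25), and Srebf1, the factor that drives fatty acid synthesis, 8868 and 8247 at day 0 and 4272, 4328 and 4399 at day 2 (-0.98 ± 0.21; adjusted p = 0.0796 and 0.0525 without the first and the second day 0 array). Of 32 genes of fatty acid synthesis, elongation and desaturation 9 fell (3, 5, 6 to 11) and 2 rose. One of those that rose was Elovl3, an elongase of very long chains, at 817 and 644 at day 0 and 3782, 2815 and 3486 at day 2 (2.18 ± 0.26). Fasn, fatty acid synthase, at -0.74 ± 0.23, was not called.

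Genes of triglyceride handling were called in both directions, with 9 of 36 lower (4, 6, 7) and 3 higher (1, 1, 1 to 3). Fabp5, a fatty acid carrier, read 4722 and 9969 at day 0 and 872, 1474 and 1409 at day 2 (-2.48 ± 0.39), and Mgll, which splits monoglycerides, 2777 and 2738 at day 0 and 1133, 1378 and 1407 at day 2 (-1.08 ± 0.14). The regulators of the main triglyceride lipase moved in opposite directions. Its inhibitor G0s2 read 1623 and 919.6 at day 0 and 504, 541 and 351 at day 2 (-1.39 ± 0.32; adjusted p = 0.181 without the first day 0 array and 0.0507 without the third day 2 array), and its coactivator Abhd5 555 and 367 at day 0 and 1161, 1239 and 1111 at day 2 (1.34 ± 0.19, adjusted p = 0.000577). Peroxisomal genes fell in 10 of 43 cases (7, 6, 8 to 9) and rose in 2 (3, 1, 2). Among them Crot, which exports medium-chain acyl groups, read 10456 and 8263 at day 0 and 3957, 3353 and 3799 at day 2 (-1.33 ± 0.14) and Nudt7, a peroxisomal CoA hydrolase, 10548 and 9664 at day 0 and 3249.8, 3898 and 3468 at day 2 (-1.51 ± 0.21). The falls of the triglyceride and peroxisomal lists stand beside 5.38% called lower among all genes tested and 12.3% in the brightest 10%. Glycogen genes split 4 higher (1, 3, 3 to 4) and 3 lower (2, 2, 3 to 4) of 27. Gys2, the liver glycogen synthase, read 2108 and 3504 at day 0 and 747, 780.2 and 1102 at day 2 (-1.64 ± 0.30; adjusted p = 0.061 without the second day 0 array), and Stbd1, which binds glycogen for lysosomal breakdown, 1489 and 1879 at day 0 and 4776, 6069 and 5948 at day 2 (1.72 ± 0.16).

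Among 34 feedback inhibitors of growth signalling 4 fell (2, 2, 2 to 3) and none rose. Notum, an enzyme that inactivates Wnt proteins, read 2657 and 2208 at day 0 and 841, 973 and 1058 at day 2 (-1.33 ± 0.14, adjusted p = 9.8e-05), and Znrf3, a ubiquitin ligase that removes Wnt receptors, 675 and 635 at day 0 and 377, 408 and 353 at day 2 (-0.77 ± 0.22, adjusted p = 0.0405; adjusted p from 0.0565 to 0.199 without any one of the 5 arrays). Spry4, an inhibitor of receptor tyrosine kinase signalling, read 945 and 1091 at day 0 and 481, 499 and 533 at day 2 (-0.99 ± 0.17), and Spred1, of the same pathway, 1496 and 1628 at day 0 and 1179.6, 1001 and 1171 at day 2 (-0.48 ± 0.13, adjusted p = 0.0338; adjusted p from 0.0523 to 0.211 without the first day 0 array, the second day 0 array, the second day 2 array or the third day 2 array). The share of 4 in 34 stands beside 5.38% of all genes tested, and the other 30 members were not called.

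Cytoskeletal genes rose in part. Of 28 tubulin and microtubule genes 9 rose (7, 5, 6 to 8) and none fell, and of 43 actin genes 10 rose (5, 8, 8 to 9) and 1 fell (Myh14, a non-muscle myosin), with medians of 0.09 and 0.14. Stmn1, which destabilizes microtubules, read 977 and 941 at day 0 and 4449.7, 4129.8 and 4296 at day 2 (2.14 ± 0.19), and Tpm1, a tropomyosin, 349 and 308 at day 0 and 1212, 1623 and 1689.9 at day 2 (2.13 ± 0.22). Tagln2, an actin-binding protein, read 1356 and 1175 at day 0 and 3562, 4234 and 4149 at day 2 (1.64 ± 0.18). S100a10, the partner of annexin A2, read 1952 and 1639 at day 0 and 9939, 10752 and 10295 at day 2, 5.73-fold higher (2.52 ± 0.16, adjusted p = 3.47e-06), while Anxa2 itself read 1168 and 1889 at day 0 and 2131, 3001 and 2262 at day 2 (0.71 ± 0.21, adjusted p = 0.0447; adjusted p from 0.0735 to 0.382 without the first day 0 array, the second day 2 array or the third day 2 array).

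Markers of sinusoidal endothelial and stellate cells were lower or not called at day 2. Of 21 sinusoidal endothelial markers 6 fell (3, 2, 3 to 4) and none rose, with a median of -0.50, and their summed signal went from 23953 to 23979 at day 0 to 16798 to 17888 at day 2. Ehd3 read 3352 and 3437 at day 0 and 1608, 1622 and 1799 at day 2 (-1.01 ± 0.12, adjusted p = 0.000208) and Clec4g 2605 and 3029.9 at day 0 and 1559.7, 1327 and 1462 at day 2 (-0.95 ± 0.17). Of 15 stellate cell markers 5 fell (1, 1, 3 to 4) and none rose, with a median of -0.46, and the sum went from 22395 to 23145 to 16720 to 17224. Reln, reelin, read 2979 and 3036 at day 0 and 1861, 2004 and 2095 at day 2 (-0.60 ± 0.14, adjusted p = 0.0192; adjusted p from 0.0586 to 0.115 without the first day 0 array, the second day 0 array or the first day 2 array). In whole tissue, fewer cells of a type and less RNA per cell cannot be told apart. Of the Kupffer cell list 1 of 19 fell, C1qb at -0.58 ± 0.15 (adjusted p from 0.0595 to 0.181 without the first day 0 array, the second day 0 array, the second day 2 array or the third day 2 array). Its summed signal was 26673 to 27167 at day 0 and 22341 to 24315 at day 2. The hepatocyte list was mixed, with 2 of 18 higher and 3 lower (11 lower after quantile normalization), and a sum of 687236 to 712491 at day 0 and 697435 to 803584 at day 2. Among the remaining marker lists, 1 of 11 neutrophil markers (Lcn2) and 1 of 4 erythroid markers rose, the latter Tfrc, the transferrin receptor, at 0.96 ± 0.22 (adjusted p = 0.0914 and 0.0781 without the first and the second day 0 array). Of 7 cholangiocyte and 13 lymphocyte markers 1 each fell, and of 15 pancreatic and 8 adipocyte and muscle markers 1 each rose and 1 each fell. The pancreatic marker that rose was Pnliprp1, at 12.9 and 51.8 at day 0 and 1780.7, 1890.6 and 1214.1 at day 2 (5.19 ± 0.41, adjusted p = 1.02e-05). Its day 0 signals were dim, and its response in the YAP KO group was 4.55. Alb and Apoa1 were among the brightest genes on all 5 arrays of this labelled liver tissue. The part of a change in cell makeup in the results was not tested.

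The same interval was measured in livers of the YAP KO group, and the difference of the 2 responses was tested in the same fit. It was called for 444 genes (3.15% of those tested), among them 202 of the 1024 genes higher in WT and 86 of the 758 lower in WT. The difference contains the WT response and its arrays, so these 2 counts are not independent of the WT calls and cannot be read against 3.15%. The count of 444 depended on each of the 5 WT arrays, and the YAP KO arrays were not left out in turn. It was 113 without the first WT day 0 array, 57 without the second and 205 to 285 without each WT day 2 array in turn. It was 287 after quantile normalization and 76 with neither trend nor robust estimation of the spread. The signal range moved the other way in these livers, with a brightest probe set of 88576 to 102372 at day 0 and 48217 to 67457 at day 2. Bright genes are therefore given after quantile normalization too. Cytosolic ribosomal proteins had a median response of 0.02 in the KO and 18 of 44 called differences in the deposited values, and 0.12 and 3 after quantile normalization. The proteasome had a KO median of 0.34, with 10 genes higher and 1 lower there and 5 called differences, 2 of them after quantile normalization. For splicing factors the KO median was -0.06, with 7 called differences, 6 after quantile normalization, 3 with the replicate number as a block, 1 with averaged probe sets and none with plain eBayes. In the ribosomal and proteasome lists plain eBayes left 1 each. Without the first and the second day 0 array, the called differences were 4 and 3 of the ribosomal proteins, 1 and 1 of the proteasome, and none of the splicing factors.

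Several large WT rises were smaller in the KO. Tnfrsf12a, the receptor for the cytokine TWEAK, read 122 and 132 at day 0 and 2606, 3679.6 and 2386 at day 2 in WT (4.32 ± 0.29) and 129.5 and 70.3 at day 0 and 148, 146 and 156 at day 2 in the KO. The difference of the responses, KO minus WT, was -3.76 (adjusted p = 0.0068; -3.74 after quantile normalization). S100a10 read 2087 and 2625 at day 0 and 4422, 3652 and 3089.5 at day 2 in the KO, with a difference of -1.87 (adjusted p = 0.0068; -1.61). H1f2, a linker histone, rose in WT by 1.81 ± 0.24 and had a KO response of -0.27 (difference -2.08, adjusted p = 0.0148; -1.89), a call that ended in 1 set of arrays (adjusted p = 0.0679 without the second day 0 array). The actin regulator Pfn1 had responses of 1.27 and -0.41 (difference -1.68, adjusted p = 0.0128; -1.48), which likewise had adjusted p = 0.0658 without the second day 0 array.

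For some genes the arrays of the genotypes were already apart at day 0. Plk3, a stress-responsive kinase, read 22.2 and 75.5 at day 0 and 531, 568 and 874 at day 2 in WT and 448 and 277 at day 0 and 584, 626 and 642 at day 2 in the KO. Its difference of responses was -2.70 (adjusted p = 0.0221; adjusted p = 0.0623 without the first day 0 array and 0.0506 without the third day 2 array), although the day 2 arrays of the genotypes overlapped. Samd1 had the same form, with 78.2 and 89.0 at day 0 and 566, 677 and 1113 at day 2 in WT and 375 and 473 at day 0 and 622, 468 and 540.1 at day 2 in the KO (difference -2.61, adjusted p = 0.0111). Ikbke, a kinase of innate immune signalling, was apart at both times. It read 16.4 and 20.6 at day 0 and 770.4, 661 and 622 at day 2 in WT and 51.8 and 59.3 at day 0 and 254, 395 and 192 at day 2 in the KO (difference -2.35, adjusted p = 0.0393; adjusted p from 0.0705 to 0.09 without any one of the 5 arrays).

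Among WT falls, Mbl2 had a called difference from the KO: it read 23058 and 24885 at day 0 and 19832, 19953 and 23536 at day 2 in the KO, with a difference of responses of 1.43 (adjusted p = 0.0068; 1.93 after quantile normalization). Mbl1, its paralog, fell in both genotypes, by 1.51 ± 0.27 in WT and with a KO response of -1.85 (adjusted p = 0.00138). Abcd2, a peroxisomal importer of very long-chain fatty acids, read 1846 and 1744 at day 0 and 449, 347 and 569 at day 2 in WT and 901 and 908 at day 0 and 989.9, 1262 and 532 at day 2 in the KO (difference 1.92, adjusted p = 0.0374; adjusted p from 0.0644 to 0.114 without the first day 0 array, the second day 0 array, the first day 2 array or the second day 2 array). Spry4 had a KO response of 0.32 (difference 1.31, adjusted p = 0.0208; adjusted p = 0.056 and 0.0891 without the first and the second day 0 array). For many of the genes named above no difference was called: Nup205 had a KO response of 2.93, Ccl9 2.34, Bhmt -2.58, Igfals -2.18, C9 -2.16 and Ang -1.92, and the adjusted p of their differences ranged from 0.0578 to 0.881.

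**Figure D5:**
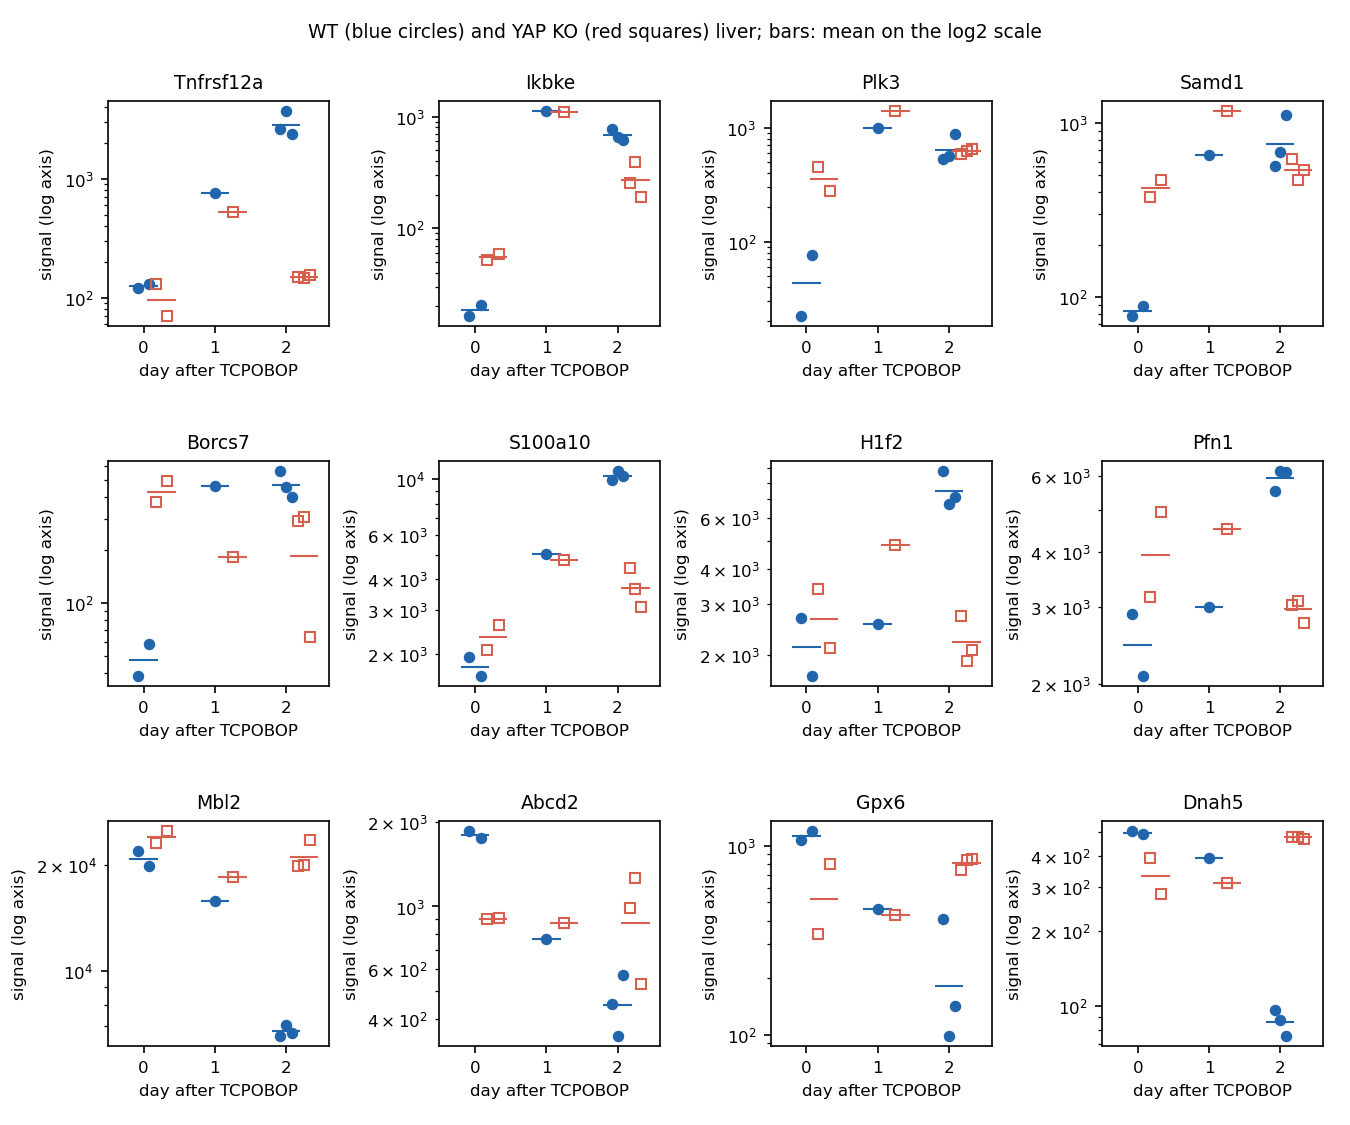
Signals on a log axis for 12 genes whose day 2 response differed between WT (blue circles) and YAP KO (red squares) livers, on every array at days 0, 1 and 2, with bars at the mean on the log2 scale. Tnfrsf12a, S100a10, H1f2 and Pfn1 separate at day 2, Plk3 and Samd1 separate at day 0, and Mbl2 is lower at day 2 in WT than in the KO.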

How the data were processed

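RNA from mouse liver was measured on 12 single-colour Affymetrix arrays. Values are the deposited intensities, MAS5 signals per the submitters' processing notes (no version given), with each array already scaled to 1 common level. Of 45101 probe sets, 34945 had 1 gene in the platform annotation, 932 several, 9160 none and 64 were controls. Probe sets above their array's own median on at least 2 of 12 arrays were kept, and where a gene had several the brightest on average stood for it, which left 14102 of 18193 genes.

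The intensities were tested as log2(value + 16), a scale that understates changes of dim genes, with limma 3.58.1 in R 4.3.3 (lmFit, then eBayes with trend and robust, two-sided). All 12 arrays in 6 groups shared 1 fit with 6 residual degrees of freedom, and p-values were adjusted by Benjamini-Hochberg over all genes. The WT contrast was day 2 minus day 0, and the difference of responses was KO minus WT. On simulated data for this contrast with 14102 genes, 36 of 100 genes changed 2-fold and 71 of 100 changed 4-fold were recovered, and 2.73% of calls were unchanged genes. The number of arrays limits the precision.

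The comparison and the gene lists were chosen with earlier results of these data known, and the ribosomal protein list after values were seen. Named genes were the 25 largest called rises and falls outside the known lists, up to 5 called members of each list, both with non-overlapping arrays, the 12 largest called changes each way in signal units, and called cell type markers (up to 5 a list), with some left out for length. These genes were chosen otherwise, after their values were seen: Agt, Agxt, Calr, Creb3l3, Creld2, Ddit3, Dnajc3, Ero1b, F10, Fasn, Fga, Fgb, Fgg, Ghr, Herpud1, Hhex, Hspa1b, Hspa5, Hspa8, Hsph1, Hyou1, Klb, Manf, Mgll, Myh14, Plg, Pros1, Psmb10, Psmb8, Psmb9, Psmg1, Rpl22, Rpl22l1, Rplp0, Seh1l, Serpind1, Syvn1 and Yap1. Alternatives were 3 normalizations, other pseudocounts, filters and thresholds, averaged probe sets, plain eBayes, array weights, the 5 WT arrays alone, a replicate block, and each WT array left out.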

Additional observations from a re-analysis of the deposited data

Results flagged for a closer look

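For these genes the day 2 response differed between YAP KO and WT livers by the test of the difference itself, in limma with adjustment over all genes, and each value is the KO response minus the WT response on the log2(signal + 16) scale. The count of such genes fell without every WT array, as given above.

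Among genes that rose in WT, the difference stayed called after quantile normalization for Tnfrsf12a -3.76, Plk3 -2.70, Samd1 -2.61, Ikbke -2.35, H1f2 -2.08, Psme3 -1.99, S100a10 -1.87, Pfn1 -1.68, Tcp1 -1.27, Hhex -1.26 and Hspe1 -1.0, and for Orm3, where the KO rose more, at 1.43. It was no longer called after quantile normalization for Tpm1 -1.35, Lonp1 -1.26, Cyb5r3 -1.18, Manf -1.08, Cyp39a1 -0.98, Psmc3 -0.98, Rpl22l1 -0.92, Rplp0 -0.86, Psmb4 -0.85, Ran -0.77 and Eif4a1 -0.74.

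Abundant plasma protein genes were lower in the KO response by values that shrank to between -0.36 and 0.06 after quantile normalization: Alb -1.54, Apoa1 -1.37, Serpina1b -1.30, Hpx -1.27, Plg -1.11, Fga -0.88, Fgg -0.88 and Fgb -0.85.

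Among genes that fell in WT, the difference was positive for Abcd2 1.92, Mbl2 1.43, Spry4 1.31, Herpud1 1.09 and Klb 1.04, of which Abcd2 and Klb were not called after quantile normalization. C1qb, a Kupffer cell marker, had the opposite sign at -1.05. The heat-shock gene Hspa1b, which was not called in WT, had a difference of 2.52.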

How the results depend on the processing

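The counts of 1024 genes called higher and 758 called lower stayed within 1.5 times under quantile normalization (951 and 838), cyclic loess (1036 and 836), a pseudocount of 1 (1016 and 749) or 64 (1045 and 794), no filter (942 and 631), the stricter filter (1042 and 785), averaged probe sets (961 and 647), plain eBayes (796 and 556), array weights (1131 and 913) and the 5 WT arrays alone (1051 and 653). Centring on the median gave 395 lower, an adjusted p under 0.01 gave 583 and 278, and a 2-fold minimum gave 453 and 264. Leaving out single arrays gave 610 to 829 higher and 257 to 643 lower; where 1 day 0 array was left, it was assumed to vary like the other groups. The replicate numbers were shared by 2 pairs of WT arrays and their deviations correlated at 0.023 and 0.016, so the numbers were not taken to pair the samples; with the replicate block 854 genes were higher and 576 lower. Serpina1b turned from 0.58 to 0.00 under quantile normalization, and its difference of responses from -1.30 to 0.06; the cause was not tested. Plain eBayes lowered the ER rises from 25 to 15, the splicing rises from 20 to 12, the endothelial falls from 6 to 3 and the stellate falls from 5 to 2, the last at 2 also with averaged probe sets. Centring lowered the peroxisomal falls from 10 to 6, the endothelial falls to 3 and the stellate falls to 2. Quantile normalization raised the falls of serine, one-carbon and methionine genes from 4 to 7 and lowered the respiratory chain rises from 8 to 5. Loess gave 9 and 5 for those and raised the amino acid catabolism falls from 11 to 18. Few arrays, with 2 at day 0, limit what small differences can be called.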
